A study of Mus musculus with 6 samples.

Results

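The genes described here are 10 neuronal microtubule genes: the beta-tubulins Tubb3 and Tubb2b, the stathmins Stmn1, Stmn2, Stmn3 and Stmn4, the doublecortin-domain genes Dcx and Dclk1, and the microtubule-associated protein genes Mtap2, the older symbol of Map2, and Mapt, which encodes tau. They were taken by gene symbol, and the rule itself used no measured value, although the set was proposed with earlier results of these data known. All 10 were found among the 23038 genes listed for each library. The libraries were made from poly-A RNA of the NSC-34 line, a mouse hybrid of neuroblastoma cells and embryonic spinal cord neurons that serves as a motor neuron model, grown in DMEM with 10% FCS. In 3 libraries the cells had received a control siRNA (siNC) and in 3 they had received siRNA against Qk (siQk), the gene of the Quaking RNA-binding proteins. The study used 3 different siRNAs against Qk, and which of them each siQk library received is not given in the sources used here. No other agent or allele is named for either group, the labels name no differentiation step, and all libraries come from 1 cell line.

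Microtubules are polymers of alpha- and beta-tubulin that fill axons and dendrites and carry transport. Stathmins bind free tubulin and lower the amount available for assembly, whereas tau, MAP2 and the doublecortin-domain proteins bind the polymer and stabilise it. In differentiating neurons TUBB3, doublecortin and SCG10, the product of Stmn2, are widely used as markers, and Quaking proteins are known to bind ACUAAC and ACUAAU elements in RNA and to regulate splicing and transcript stability.

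Each library held 43000503 to 53565950 expected counts, and 12666 genes passed the filter of a mean log2 CPM above 0 (CPM, a count scaled to the total of its library). Of the 10 microtubule genes, 8 passed and were tested, with 93 to 30402 counts per library, whereas Dcx and Stmn2 did not pass. Levels are given as RPKM, counts scaled by the exon length of the gene and the total of the library, which allows comparison between genes. The targeted gene Qk stood at 9.67, 8.18 and 14.9 RPKM in siNC and at 1.39, 1.71 and 1.10 RPKM in siQk. Its log2 fold change was -2.997 ± 0.34 (SE, n = 3 per group, edgeR quasi-likelihood test, adjusted p = 0.0149), and every siQk library lay below every siNC library. Each SE of a log2 fold change was taken from the variance of log2 CPM within each group. It did not come from edgeR's fit and did not enter the edgeR p. The adjusted p of Qk was 0.125 without siNC replicate 1. The control libraries differed among themselves by exon length: the median gene with exons of up to 1500 bases deviated from its mean over the 6 libraries by 0.121, -0.046 and -0.136 log2 units in siNC replicates 1, 2 and 3, and the median gene of over 6000 bases by -0.157, 0.103 and 0.111, while the siQk libraries stayed within 0.05. Tubb3, Stmn3, Stmn4 and Tubb2b were lowest in siNC replicate 3, so their values are also given without that library.

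None of the 8 microtubule genes tested was called changed, against 0.00790% of all genes tested, which is Qk alone, and none was called by edgeR's exact or likelihood-ratio test or by DESeq2. A call needed p under 0.01 and an adjusted p under 0.1. The adjusted p of each of the 8 genes was 1 after rounding. At an unadjusted p under 0.05, Tubb2b and Dclk1 were higher in siQk and Mapt was lower, so 2 of 8 were higher against 1.20% of all genes and 1 of 8 was lower against 1.69%. The RPKM values of the groups did not overlap for 2 of 8 genes that were higher in siQk, Stmn1 and Tubb2b, against 5.35% of all genes, and for 1 that was lower, Mapt, against 3.49%. Of the 8 fold changes 6 lay above 0, against 50.8% of all genes tested. The median of the 8 was 0.23 on the log2 scale, beside 0.0035 over all genes tested. Without siNC replicate 3, 4 lay above 0 and 4 below, with a median of -0.018, and without siQk replicate 1 or siQk replicate 3, 5 lay above 0 and 3 below. The median was 0.36 without siNC replicate 1. With 3 libraries per group an exact permutation test cannot give a p below 0.1. In these bulk libraries, fewer cells that express a gene and less RNA per cell cannot be told apart.

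**Figure D1:**
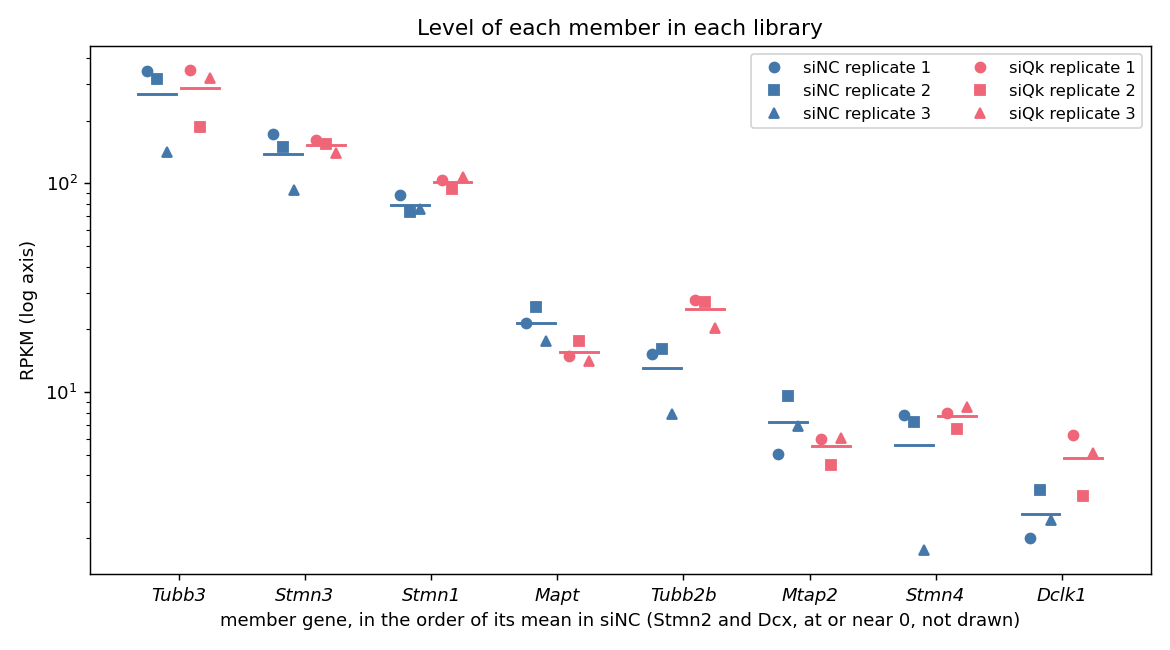
RPKM on a log axis for the 8 genes tested, in the order of their mean in siNC, with siNC in blue and siQk in red, a symbol for each replicate and a line for each group mean. The groups were apart for Stmn1, Mapt and Tubb2b, and siNC replicate 3 was the lowest library for Tubb3, Stmn3, Tubb2b and Stmn4.

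Tubb2b, a beta-tubulin of developing neurons, and the kinase gene Dclk1 had the fold changes farthest from 0 with all 6 libraries. Their order was not stable when libraries were left out, and without siNC replicate 1 Stmn4 (0.78) lay above Dclk1 (0.71). Tubb2b stood at 15.3, 16.1 and 7.86 RPKM in siNC and at 27.7, 27.1 and 20.2 RPKM in siQk. All 3 siQk libraries lay above all 3 siNC libraries, and the means were 13.1 ± 4.53 and 25.0 ± 4.18 RPKM (SD, n = 3 each, exact permutation p = 0.1). On the log2 scale the fold change was 0.92 ± 0.34 (SE, edgeR adjusted p = 1), and without siNC replicate 3 it was 0.67. The gene lies on the minus strand at chr13:34126748-34130466 (GRCm38), near its paralog Tubb2a at chr13:34074274-34078007 on the same strand.

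Tubb2a stood at 46.3, 58.3 and 31.4 RPKM in siNC and at 71.7, 85.3 and 57.4 RPKM in siQk. These groups overlapped in deposited RPKM, since siQk replicate 3 lay below siNC replicate 2, but with TMM-scaled RPKM these libraries stood at 57.3 and 57.2 and the groups no longer overlapped, and the log2 fold change was 0.64 ± 0.28 (SE, edgeR adjusted p = 1). Reads of the pair are hard to assign: of all stretches of 75 bases in the annotated Tubb2b transcripts, 30.2% also occurred in transcripts of another gene, Tubb2a or Tubb2a-ps2, and 43.2% of those of Tubb2a did. The deposited exon length of Tubb2a was 356 bases, whereas its GENCODE exons cover 1610 bases, so its RPKM rests on part of the gene. The split of counts between Tubb2b and Tubb2a is therefore uncertain.

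Tubb3, the class III beta-tubulin that is largely restricted to neurons, had the highest level of the 10 genes. It stood at 346, 318 and 142 RPKM in siNC and at 349, 186 and 318 RPKM in siQk. The low values fell in siNC replicate 3 and siQk replicate 2, and the groups overlapped over nearly their whole range. Its log2 fold change was 0.071 ± 0.48 (SE, edgeR adjusted p = 1), and it was -0.22 without siNC replicate 3, so the libraries gave no stable direction. The gene lies at chr8:123411424-123422015 on the plus strand.

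As a share of the summed RPKM of the 8 beta-tubulin genes, a measure that does not depend on library scaling, Tubb2b made up 1.47%, 1.65% and 1.21% in siNC and 2.56%, 2.94% and 2.01% in siQk. The shares did not overlap and differed by 1.06 percentage points (exact permutation p = 0.1). They still rest on the uncertain split of counts between Tubb2b and Tubb2a and on the short exon length listed for Tubb2a. Tubb2a itself made up a mean of 5.09% in siNC and 7.18% in siQk, with overlap. Tubb3 made up 33.3%, 32.5% and 21.9% in siNC and 32.2%, 20.2% and 31.6% in siQk, with overlap. Tubb5, the beta-tubulin of most tissues, held 36.0% to 45.6% of the sum over the 6 libraries, so that Tubb3 and Tubb5 together made up most of the beta-tubulin RNA per length.

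**Figure D2:**
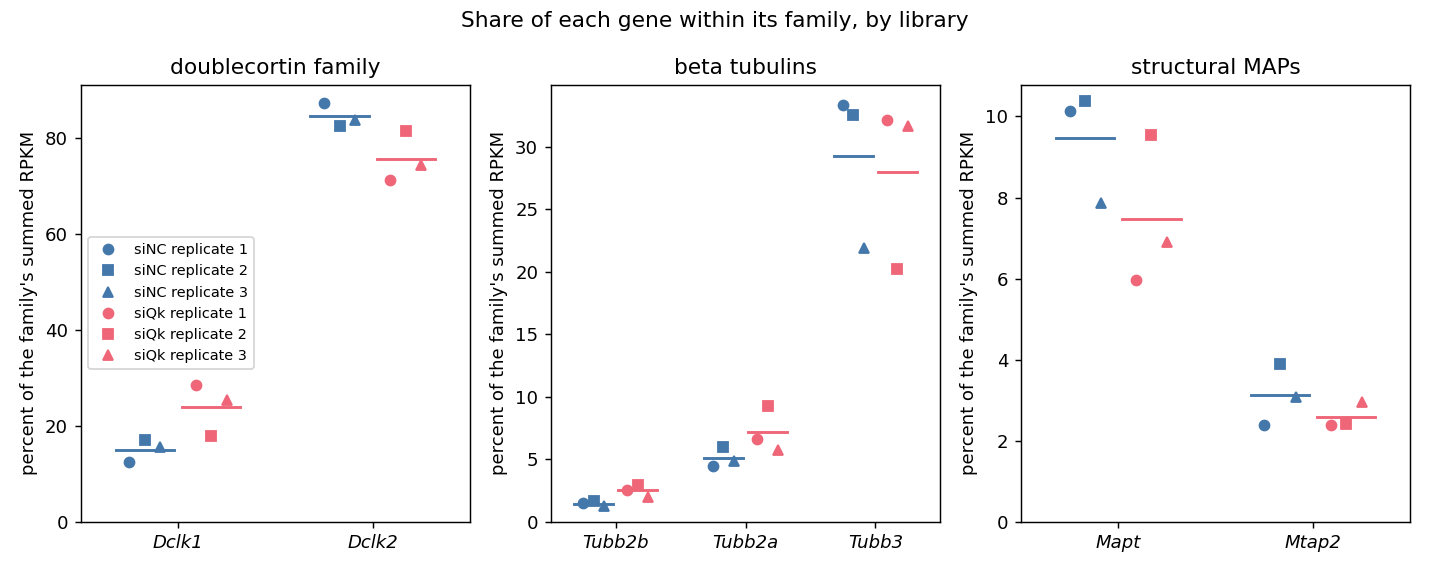
Share of each gene in the summed RPKM of its family, in percent, for the doublecortin family (Dcx and Dclk3, at or near 0, not drawn), for 3 of the 8 beta-tubulins and for 2 of 5 structural MAP genes, with a symbol per library and a line for each group mean. The shares of Dclk1 and of Tubb2b in siQk lay above those in siNC, and those of Dclk2 lay below. The shares of Tubb2a, Tubb3, Mapt and Mtap2 overlapped.

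Among the stathmins, Stmn1, the stathmin that proliferating cells also express, stood at 88.2, 73.2 and 75.6 RPKM in siNC and at 103, 94.2 and 107 RPKM in siQk. The groups did not overlap, and the means were 79.0 ± 8.04 and 102 ± 6.67 RPKM (SD, n = 3 each, exact permutation p = 0.1). The log2 fold change was 0.34 ± 0.11 (SE, edgeR adjusted p = 1). Of the stretches of 75 bases in its transcripts, 15.4% also occurred in a predicted gene, Gm11223. The gene lies at chr4:134468320-134473843 on the plus strand. Beside it, the 10 cell division markers examined, which include Mki67 and Pcna, all had a fold change above 0, with a median of 0.24 (0.13 without siQk replicate 2; without siNC replicate 1, 9 of 10 lay above 0 with a median of 0.17), and their summed level was 615 to 781 RPKM in siNC and 755 to 929 RPKM in siQk. Of all genes tested, 50.8% had a fold change above 0. The part of the cell division markers in the values of Stmn1 was not tested.

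Stmn3 was the most abundant stathmin, at 173, 149 and 92.9 RPKM in siNC and at 162, 155 and 140 RPKM in siQk. The siQk values fell within the range of siNC. The log2 fold change was 0.12 ± 0.25 (SE, edgeR adjusted p = 1, exact permutation p = 0.8) and was -0.081 without siNC replicate 3. Stmn3 lies at chr2:181306459-181314500 on the minus strand.

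Stmn4, a brain stathmin related to Stmn3, stood at 7.79, 7.22 and 1.76 RPKM in siNC and at 7.995, 6.70 and 8.54 RPKM in siQk. siNC replicate 3, with 93 counts, was far below the other 5 libraries, which held 421 to 489 counts. Its log2 fold change was 0.46 ± 0.68 (SE, edgeR adjusted p = 1, exact permutation p = 0.4), and it was 0.046 without that library. Of the 8 genes tested, Stmn4 had the largest spread over the 6 libraries, with an SD of 0.84 on the log2 CPM scale. It lies at chr14:66344296-66361680 on the plus strand.

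Stmn2, whose product SCG10 acts in axon growth and repair and whose human transcript is known to be cut short when TDP-43 is lost, was all but absent. It had 2 counts in siNC replicate 1, or 0.00796 RPKM, and 0 counts in each of the other 5 libraries. No fold change was computed for it, and a decrease from this level was not detectable at this depth. In each siQk library Stmn2 stayed under a limit of 3 counts (counting error only). That limit equals 0.0114 to 0.0141 RPKM over the 6 libraries, and no rise of Stmn2 above it was seen in siQk. The gene lies at chr3:8509360-8561606 on the plus strand.

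Within the stathmin family, Stmn3 held 54.6% to 65.0% of the summed RPKM, Stmn1 31.8% to 44.4% and Stmn4 1.03% to 3.34% over the 6 libraries. None of these shares was apart between the groups. The sum itself was 269, 230 and 170 RPKM in siNC and 273, 256 and 256 RPKM in siQk, and siQk replicates 2 and 3 lay below siNC replicate 1.

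Doublecortin, a marker of young migrating neurons, was at 0. Dcx had 0 counts in each of the 6 libraries, and a limit of 3 counts over all 6 libraries together allows a level of up to 0.000840 RPKM (counting error only). The gene lies at chrX:143855842-143933311 on the minus strand. Its promoter is shown beside that of Tubb3 because the 2 genes mark the extremes of the levels measured here. Both windows run from 250 bases before to 50 bases after a RefSeq start (GRCm38.p6), Dcx from chrX:143933170-143933469 on the minus strand and Tubb3 from chr8:123411303-123411602 on the plus strand, and capitals mark each CG dinucleotide.
Dcx promoter: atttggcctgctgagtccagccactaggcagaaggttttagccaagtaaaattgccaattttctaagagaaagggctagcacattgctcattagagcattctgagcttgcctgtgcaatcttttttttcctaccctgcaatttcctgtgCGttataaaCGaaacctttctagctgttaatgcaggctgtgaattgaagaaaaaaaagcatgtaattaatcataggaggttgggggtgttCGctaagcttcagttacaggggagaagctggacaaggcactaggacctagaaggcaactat
Tubb3 promoter: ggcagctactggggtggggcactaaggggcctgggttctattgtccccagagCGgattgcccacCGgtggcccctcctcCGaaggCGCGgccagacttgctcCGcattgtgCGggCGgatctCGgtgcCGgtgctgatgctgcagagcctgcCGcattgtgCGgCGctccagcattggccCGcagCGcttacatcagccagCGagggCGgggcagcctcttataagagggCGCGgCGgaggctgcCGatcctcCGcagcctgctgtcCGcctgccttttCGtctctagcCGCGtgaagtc

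The Dcx window held 3 CG dinucleotides and the Tubb3 window 26, beside a median of 7 over 32851 mouse promoters of that length. At least 26 were found in 16.9% of them, and at least 3 in 76.7%. The window of Stmn3, with a mean of 138 RPKM in siNC, held 6 CG. That of Mtap2, with a mean of 7.19 RPKM in siNC, held 37, so these counts did not follow level. The letters TATAAA, searched on both strands, occurred in the Dcx window and not in the Tubb3 window, and in 13.6% of all promoters. These are descriptions of the reference sequence, and neither methylation nor factor binding was measured in these cells.

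Dclk1, which joins a doublecortin domain to a protein kinase domain, stood at 2.01, 3.40 and 2.45 RPKM in siNC and at 6.22, 3.20 and 5.13 RPKM in siQk. siQk replicate 2 lay below siNC replicate 2, so the groups overlapped, while the other siQk libraries were higher than all of siNC. This gave a log2 difference of 0.87 ± 0.36 (SE, edgeR adjusted p = 1, exact permutation p = 0.2), with 1399 to 3871 counts per library. Leaving out each library in turn gave fold changes from 0.65 to 1.09, with the lowest when siQk replicate 1 was left out. The gene lies at chr3:55242364-55539068 on the plus strand, and its exons overlap those of Gm21954 and Gm42609 on the other strand, whose reads cannot be told apart in libraries that do not mark strand.

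Its nearest relative Dclk2 stood at 14.1, 16.5 and 13.1 RPKM in siNC and at 15.5, 14.5 and 15.0 RPKM in siQk, with a log2 difference of 0.021 ± 0.083 (SE, edgeR adjusted p = 1). Within the doublecortin family of 4 genes, Dclk1 made up 12.5%, 17.0% and 15.7% of the summed RPKM in siNC and 28.6%, 18.0% and 25.4% in siQk. These shares did not overlap, differing by 8.96 percentage points (exact permutation p = 0.1), although siQk replicate 2 lay only just above siNC replicate 2. Dclk2 held nearly all of the rest, so its share was lower in siQk without overlap. It made up 87.4%, 82.6% and 83.8% in siNC and 71.3%, 81.4% and 74.4% in siQk.

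Dclk1 is known to have a start for the full-length product and another for shorter transcripts that code for the kinase part without the doublecortin domain, and values given per gene do not tell their transcripts apart. The 2 promoter windows are shown for that reason, the upstream one at chr3:55242114-55242413 and the internal one at chr3:55461478-55461777, both on the plus strand, with CG in capitals.
Dclk1 upstream promoter: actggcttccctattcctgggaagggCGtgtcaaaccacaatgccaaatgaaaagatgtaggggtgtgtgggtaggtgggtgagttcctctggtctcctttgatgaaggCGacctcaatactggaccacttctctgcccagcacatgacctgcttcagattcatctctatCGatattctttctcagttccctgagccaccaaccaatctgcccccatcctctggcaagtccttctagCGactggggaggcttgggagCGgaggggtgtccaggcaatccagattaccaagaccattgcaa
Dclk1 internal promoter: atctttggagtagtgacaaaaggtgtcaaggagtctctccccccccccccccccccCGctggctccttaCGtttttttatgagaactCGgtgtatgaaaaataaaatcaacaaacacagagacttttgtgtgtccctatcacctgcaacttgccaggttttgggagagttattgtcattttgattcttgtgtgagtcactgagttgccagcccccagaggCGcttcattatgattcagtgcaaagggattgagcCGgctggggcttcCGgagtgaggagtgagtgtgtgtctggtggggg

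The upstream window held 5 CG dinucleotides and the internal one 6, and neither held TATAAA on either strand.

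Tau binds along axonal microtubules, and its gene Mapt stood at 21.4, 25.7 and 17.67 RPKM in siNC and at 14.9, 17.65 and 14.2 RPKM in siQk. The groups were apart by 0.02 RPKM only, between siNC replicate 3 and siQk replicate 2. The means were 21.6 ± 4.003 and 15.6 ± 1.82 RPKM (SD, n = 3 each, exact permutation p = 0.1), and the log2 fold change was -0.49 ± 0.16 (SE, edgeR adjusted p = 1). The gene no longer had an unadjusted p under 0.05 when siNC replicate 2, siQk replicate 1 or siQk replicate 3 was left out, and the fold change then ran from -0.46 to -0.38. Mapt lies at chr11:104231390-104332090 on the plus strand.

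Mtap2, whose product marks dendrites in mature neurons, stood at 5.06, 9.64 and 6.88 RPKM in siNC and at 5.97, 4.47 and 6.07 RPKM in siQk. siNC replicate 2 was the highest library, and siNC replicate 1 lay within the siQk range. Its log2 fold change was -0.41 ± 0.30 (SE, edgeR adjusted p = 1, exact permutation p = 0.4), and it ran from -0.61 without siNC replicate 1 to -0.17 without siNC replicate 2. The gene lies at chr1:66175273-66442583 on the plus strand, with exons of Gm10558 overlapping on the other strand.

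Among 5 structural MAP genes, Mtap1b made up 73.0% to 81.2% of the summed RPKM in each library. Mapt made up 10.1%, 10.4% and 7.87% in siNC and 5.98%, 9.53% and 6.90% in siQk, and these shares overlapped (exact permutation p = 0.2). Mtap2 made up 2.40% to 3.90%.

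**Figure D3:**
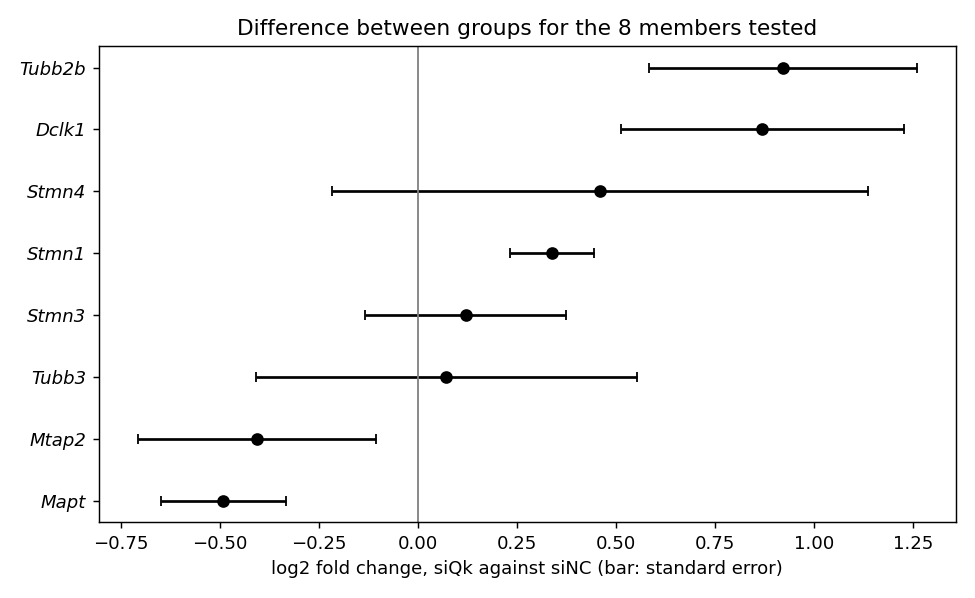
Log2 fold change of siQk against siNC for the 8 genes tested, from edgeR's quasi-likelihood fit. Bars are standard errors from the spread of log2 CPM between the libraries of each group, not from that fit. Tubb2b at 0.92 and Dclk1 at 0.87 lay highest and Mapt at -0.49 lowest, and none had an adjusted p under 0.1.

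Ordered by mean RPKM in siNC, the levels ran Tubb3 (269 ± 111), Stmn3 (138 ± 41.1), Stmn1 (79.0 ± 8.04), Mapt (21.6 ± 4.003), Tubb2b (13.1 ± 4.53), Mtap2 (7.19 ± 2.31), Stmn4 (5.59 ± 3.33), Dclk1 (2.62 ± 0.709), Stmn2 and Dcx (SD, n = 3). Neighbours overlapped between Tubb3 and Stmn3, between Tubb2b and Mtap2, between Mtap2 and Stmn4 and between Stmn4 and Dclk1. In siQk the places of Mapt and Tubb2b were exchanged: Tubb2b stood at 25.0 ± 4.18 and Mapt at 15.6 ± 1.82 RPKM, with all 3 Tubb2b values above all 3 Mapt values, whereas in siNC all Mapt values lay above all Tubb2b values. This exchange used the values already described for both genes. In siQk Stmn4 also stood above Mtap2 in every library, at 7.74 ± 0.946 and 5.51 ± 0.895 RPKM. In siNC their order was mixed: Stmn4 was above Mtap2 in replicate 1 (7.79 against 5.06 RPKM). It was below Mtap2 in replicate 2 (7.22 against 9.64) and in replicate 3 (1.76 against 6.88).

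The rest of the microtubule pathway was read from 10 lists, which hold 86 genes beside the 10 described. Of these 80 were tested and none was called. At an unadjusted p under 0.05, 4 were higher in siQk and 0 were lower, against 1.20% and 1.69% of all genes tested. Of the 80 fold changes 52 lay above 0 and 28 below, whereas 50.8% of all genes tested lay above 0. Over the left-out libraries these counts ran from 45 and 35 (without siQk replicate 2) to 54 and 26 (without siNC replicate 2). The median was 0.093 on the log2 scale, and it fell to 0.028 without siQk replicate 2, to 0.045 without siNC replicate 3 and to 0.046 without siNC replicate 1.

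The 4 were Tubb2a, the folding cofactor gene Tbca, the severing-protein relative Fignl1 and Cdk5r1, which encodes an activator of the tau kinase CDK5. Tbca, whose product holds beta-tubulin during folding, stood at 256, 236 and 212 RPKM in siNC and at 298, 318 and 323 RPKM in siQk, a log2 difference of 0.39 ± 0.071 (SE, edgeR adjusted p = 1). Fignl1 stood at 12.6, 17.5 and 14.0 RPKM in siNC and at 18.1, 21.6 and 19.5 RPKM in siQk, a log2 difference of 0.40 ± 0.15 (SE, edgeR adjusted p = 1). Cdk5r1 was low, at 0.855, 0.644 and 0.563 RPKM in siNC and 1.15, 1.04 and 1.04 RPKM in siQk, with a log2 difference of 0.62 ± 0.17 (SE, edgeR adjusted p = 1). The groups did not overlap for 6 of the 80 genes that were higher in siQk, or 7.5% against 5.35% of all genes tested, namely Tbca, Fignl1, Cdk5r1, Tuba1c, Mapre2 and Ttbk2. They did not overlap either for 2 that were lower, or 2.5% against 3.49%, namely the end-binding protein gene Mapre3 and the kinase gene Mark2, with log2 fold changes of -0.18 and -0.11.

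By list, all 7 beta-tubulins tested had a fold change above 0, with a median of 0.24, and so had all 4 alpha-tubulins, with a median of 0.22. Over all genes tested, 50.8% lay above 0. Tuba1a, the main neuronal alpha-tubulin, stood at 398, 352 and 193 RPKM in siNC and at 440, 390 and 376 RPKM in siQk, so that siNC replicate 3 was again the lowest library. Without siNC replicate 3, 6 of the 7 beta-tubulins and 3 of the 4 alpha-tubulins lay above 0, with medians of 0.16 and 0.037. Leaving out any siQk library also put 1 beta-tubulin below 0, and leaving out siQk replicate 2 put 1 alpha-tubulin there. Of the 11 structural MAP genes 4 lay above 0 and 7 below, with a median of -0.087, which was -0.16 when siQk replicate 2 was left out and -0.029 when siNC replicate 3 was. Among these, Mtap4 had a log2 fold change of -0.26 ± 0.14, Mtap7 of 0.37 ± 0.20 and Mtap7d1 of 0.16 ± 0.24 (SE). Tuba1b and Tuba1c stood at 0.27 ± 0.33 and 0.17 ± 0.12, and Tubb4a and Tubb6 at 0.43 ± 0.27 and 0.24 ± 0.26.

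The 9 genes of the gamma-tubulin ring and the minor tubulins had a median of 0.13, and the 6 folding cofactors 0.13. The 17 severing and tubulin-modifying enzymes had 0.11, the 13 plus- and minus-end proteins 0.033 and the 16 kinases tested -0.0067. The kinase median was -0.061 when siNC replicate 3 was left out and 0.012 when siQk replicate 2 was. That of the enzymes ran from -0.061 (without siQk replicate 2) to 0.20 (without siQk replicate 1). The end proteins ran from -0.035 (without siNC replicate 1) to 0.11 (without siNC replicate 3). The cofactors ran from 0.0019 (without siNC replicate 3) to 0.22 (without siNC replicate 1). The medians of the 3 stathmins and the 2 doublecortin-family genes tested were 0.34 and 0.44, and without siNC replicate 3 they were 0.046 and 0.41. With no filter, where Dclk3 enters, the doublecortin-family median was 0.014. The genes with the smallest p in the remaining lists were Tubd1 (0.28 ± 0.15), Tubg1 (0.25 ± 0.19) and Tubgcp6 (0.23 ± 0.18) of the ring and minor tubulins, and Tbcb (0.18 ± 0.15) and Tbcd (-0.16 ± 0.17) beside Tbca (log2 fold change ± SE). Among the end proteins they were Slain1 (0.36 ± 0.21), Clip2 (-0.28 ± 0.20) and Mapre2 (0.20 ± 0.095), and among the enzymes Agbl5 (0.33 ± 0.17) and the detyrosinating enzyme gene Vash1 (-0.44 ± 0.36) beside Fignl1. Ttbk2 and Brsk2, which encode kinases, followed Cdk5r1 at 0.33 ± 0.18 and 0.33 ± 0.24. Each of these had an edgeR adjusted p of 1.

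**Figure D4:**
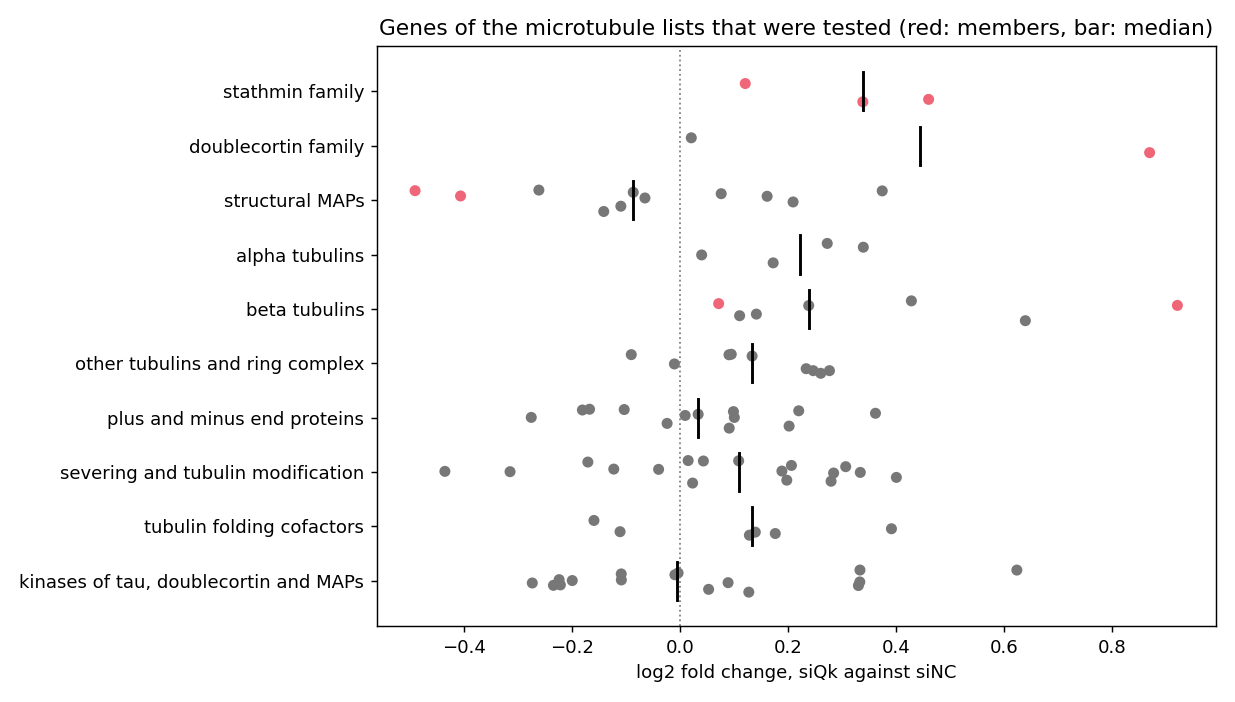
Log2 fold change of siQk against siNC for each tested gene of the 10 microtubule lists, with the 8 genes described above in red, the other 80 in grey and a bar at each list's median (vertical scatter within a list carries no value). The beta- and alpha-tubulins all lay above 0 with all 6 libraries, though not without siNC replicate 3 or siQk replicate 2, nor, for the beta-tubulins, without siQk replicate 1 or 3, and the structural MAPs lay on both sides of it.

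The cells were checked against marker lists. The 7 motor neuron markers summed to 10.04 to 11.5 RPKM in siNC and 14.2 to 16.4 RPKM in siQk, without overlap. Of these, Mnx1, Chat, Lhx3 and Slc5a7 stayed under 1 RPKM in every library, while Isl1 stood at 4.75 to 4.83 RPKM in siNC and 7.80 to 9.63 RPKM in siQk and was not called. The log2 fold changes of the 3 motor neuron markers tested were 0.82 for Isl1, 0.21 for Isl2 and -0.094 for Slc18a3, each with an edgeR adjusted p of 1. Among these 3, only Isl1 had groups that did not overlap, so the sum is no measure of the motor neuron list as a whole. The 7 neuroblastoma markers summed to 317 to 499 RPKM in siNC and 377 to 474 RPKM in siQk. The 9 neuron markers summed to 282 to 447 RPKM in siNC and 383 to 432 RPKM in siQk, with only Rbfox3 under 1 RPKM throughout. Markers of astrocytes summed to at most 2.52 RPKM and of fibroblasts to at most 0.217 RPKM, and those of the oligodendrocyte lineage to at most 11.01 RPKM, with Olig1 and Olig2 at or under 3 counts. In siNC replicate 3, Nefl stood at 22.7 RPKM against 52.8 and 91.3 RPKM in the other control libraries, Phox2a at 50.2 RPKM against 150 and 153 RPKM and Th at 5.43 RPKM against 28.1 and 38.3 RPKM, which moved with the low values of Tubb3, Stmn3, Stmn4 and Tubb2b there. Their part in those values was not tested.

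The letters ACTAAC and ACTAAT, the DNA form of the Quaking element, were searched on the transcript strand of the GENCODE transcript with the longest coding sequence of each gene. Introns were not searched. Over 21866 protein-coding genes, 41.2% held at least 1 match, at 0.234 matches per kilobase. Of the 10 microtubule genes 3 held a match: Dcx with 5 in 9074 bases, Dclk1 with 1 in 7847 bases and Mtap2 with 1 in 6258 bases. These 3 had the longest of the 10 transcripts searched, and the transcripts of the other 7 were 1060 to 2250 bases long. The sites of the 2 expressed genes are shown with 10 bases on either side and the element in capitals, Dclk1 in the 3′ UTR at chr3:55539028-55539033 and Mtap2 in the coding sequence at chr1:66414697-66414702, both on the plus strand.
Dclk1 site: atgttcttaaACTAATaaagtcatat
Mtap2 site: ccgacctttcACTAATtgaagtaaaa

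The Dclk1 site lies close to the 3′ end of its transcript, at base 7811 of 7847. Qk itself held 7 matches in 8547 bases. A match of 6 letters is a description of the sequence and binding was not measured here.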

How the data were processed

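Poly-A mRNA libraries of NSC-34 cells were prepared with the TruSeq kit, which does not mark strand. The authors aligned reads with OLego and counted them per gene with Quantas (versions not given in the sources used here). The build is mm10 per the labels, while the methods also name an older build. The deposited expected counts per gene were not all whole and were rounded. The deposited RPKM values are per kilobase of the listed exon length and scaled to the library total, and were recomputed from the counts within 1e-06.

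Counts were tested with edgeR 4.0.16 in R 4.3.3: TMM scaling (factors 0.956 to 1.02), quasi-likelihood test, genes with mean log2 CPM above 0, no covariate, Benjamini-Hochberg adjustment over 12666 genes. A call needed p under 0.01 and adjusted p under 0.1. The labels call the samples biological replicates. Exact permutation tests were two-sided over 20 arrangements. DESeq2 1.42.0, other scalings and filters, leaving out each library and the numbers as a block were alternatives, and the test script was checked on simulated data. Named genes were the 10 genes, Qk, the genes of each list with the smallest p (up to 3) and the 5 genes most like the most variable member (1 of these 5 is not reported here). Mapre3, Mark2, Isl1, Isl2, Slc18a3, Nefl, Phox2a, Th, Tubb5, Mtap1b and the other markers with values were chosen after their values were seen. The genes and lists were chosen with earlier results of these data known. Sequences came from RefSeq (GRCm38.p6) promoters, where 5 of the 10 genes matched, and from GENCODE transcripts. The ± values are SDs or SEs from the spread between libraries, whereas the limits of 3 counts cover counting error only.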

Additional observations from a re-analysis of the deposited data

How the results depend on the processing

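None of the 8 microtubule genes was called under any of the alternatives run. The number of genes called over the whole table was 1 in the quasi-likelihood fit, 5 with edgeR's exact test and 5 with its likelihood-ratio test, 19 with DESeq2's Wald test and 0 to 1 when each library was left out. It was 0 without siNC replicate 1, where the quasi-likelihood test still gave 538 genes an unadjusted p under 0.05, and where Qk had an adjusted p of 0.125 and a log2 fold change of -3.09. With the replicate block the count stayed at 1. The replicate numbers were not read as pairs, since deviations of same-numbered libraries from their group means correlated at 0.213, 0.018 and -0.169, and under the block the log2 fold change of Tubb2b was 0.97. Leaving out libraries in turn, the log2 fold change of Stmn3 ran from -0.081 to 0.31 and that of Tubb3 from -0.22 to 0.30, with Tubb3 below 0 in 3 of these fits (-0.22 and Stmn3 at -0.081 when siNC replicate 3 was dropped, -0.10 when siQk replicate 1 was, -0.025 when siQk replicate 3 was). Medians of lists moved over the same left-out libraries from 0.088 to 0.21 for the other tubulins, from -0.035 to 0.11 for the end-binding proteins, from -0.061 to 0.20 for the severing and modifying enzymes and from 0.0019 to 0.22 for the folding cofactors. The doublecortin-family median was 0.014 with no filter and 0.019 with filterByExpr, where Dclk3 enters the 2 genes tested to make 3. As shares of expected counts rather than of RPKM, Dclk1 differed by 13.6 percentage points, since its exons are longer. Scaling by total counts shifted the all-gene median, 0.0035 under TMM, to 0.028. Tubb2b had the highest fold change of the 8 genes except without siNC replicate 3, without siQk replicate 2 and with the length trend removed, where Dclk1 was highest (0.85, 1.09 and 0.92). An alternative with the length trend of each library removed was chosen after seeing the data and gave log2 fold changes of 0.92 for both Tubb2b and Dclk1. The groups did not overlap for 3 of 8 genes (Mapt, Stmn1 and Tubb2b), against 8.83% of all genes tested, and 2 alternatives chosen after seeing the data gave 3 of 8 against 8.51% with TMM-scaled RPKM and 3 of 8 against 22.9% without siNC replicate 3. Dcx and Stmn2 are limited by their counts of 0 to 2.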

Other observations

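Stmn4 varied most over the 6 libraries, and among the tested genes whose log2 CPM followed it most closely were Gprasp1, Mum1, Pold1 and Rps28, with Pearson r of 0.999, 0.998, 0.997 and 0.996. These are descriptions over 6 libraries, chosen as among the highest of 12666 genes, and no p is given. Rps28, a small ribosomal subunit gene, stood at 177 RPKM in siNC replicate 3 and at 564 to 690 RPKM in the other 5 libraries, and Pold1, the catalytic subunit gene of DNA polymerase delta, at 13.5 RPKM and 27.4 to 32.8 RPKM. Each of these 4 genes was lowest in siNC replicate 3, as Stmn4 was. Among the microtubule genes, the correlation with Stmn4 was 0.92 for Stmn3, 0.83 for Tubb3 and 0.81 for Tubb2b, and -0.27 for Mtap2 and -0.11 for Mapt.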
